A study of Mus musculus with 20 samples.

Results

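Gene expression in whole mouse fetuses at embryonic day E18.5, close to birth, was set against E14.5, when the organs have formed but most have not matured. The comparison used the 2 arrays labelled E18.5 and the 2 labelled E14.5, which are 4 of the 20 arrays in a series of 8 stages, and the probe sets that carry exactly 1 gene symbol, 34958 of 45101. Both groups were wild type C57BL/6 mice kept specific-pathogen free, of mixed sex, and in both the material was the embryo without its amnion, with RNA from several embryos pooled for each array. Neither group carried an allele or received an agent, so that the groups differ, as labelled, only in stage. Biotin-labelled RNA, from a one-cycle protocol, was read on Affymetrix Mouse Genome 430 2.0 arrays, which read each transcript with sets of short oligonucleotide probes.

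Late gestation in the mouse is the time when organs laid down earlier take up the work they will do after birth. The skin builds a cornified barrier against water loss, the lung makes surfactant, brown fat prepares to produce heat, gut and exocrine glands begin to make digestive enzymes, and the liver turns from a site of blood formation towards metabolism. Over the same days the growth of many tissues slows, progenitor cells leave the cell cycle, and primitive red cells with embryonic haemoglobin are replaced by definitive ones.

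Values are MAS5 signals, a brightness in arbitrary units on a linear scale, and each is given for the first-numbered and then the second-numbered pool of a stage. Changes are differences of log2(signal + 25.9), E18.5 minus E14.5, with the SE of a limma fit to all 20 arrays. On this scale the changes of dim genes are understated. Calls needed a limma p below 0.05 after Benjamini-Hochberg adjustment and a change of at least 2-fold, and "rose" and "fell" stand for called genes alone. The labels name the pools as biological replicates, so the p-values measure the spread between pools, here taken over all 8 stages. Most of the information on that spread comes from stages outside the comparison. The fit has 12 residual degrees of freedom, against 2 in a fit of E14.5 and E18.5 alone. Median signals were lower in the 12 youngest samples (E7.5 to E10.5), at 67.2 to 91.1. A fit of E12.5 to E18.5 alone called 1442 genes higher and 417 lower, against 1394 and 405. With 2 arrays at each stage compared, their number limits the precision. In RNA of whole fetuses, fewer cells of a type and less RNA per cell cannot be told apart.

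The 4 arrays were alike in their technical measures. Their median signals were 168 to 172 and the ratios of 3′ to 5′ probe sets were 1.18 to 1.29 for actin and 0.70 to 0.77 for Gapdh. Across genes, the replicates correlated at 0.989 at either stage, and arrays of different stages at 0.848 to 0.854. The brightest signals were lower on the first E14.5 array, whose highest was 26357, than on the other 3. For the 99 genes with a mean signal above 15000, the median log2 ratio of the second over the first array was -0.02 at E18.5, against 0.42 at E14.5. It was 0.11 at E12.5 and 0.38 at E16.5. Xist, the X-inactivation transcript made in female cells, fell (1877 and 2047 at E18.5, against 5688 and 7531 at E14.5; -1.73 ± 0.41, adjusted p = 0.00204), and Y-linked Eif2s3y rose (1016 and 963 at E18.5, against 368 and 386 at E14.5; 1.33 ± 0.36, adjusted p = 0.00542). Y-linked Uty was at 336 and 397 at E18.5, against 219 and 214 at E14.5 and was not called (0.69 ± 0.39, adjusted p = 0.177), nor was Y-linked Kdm5d, at 368 and 408 at E18.5, against 268 and 265 at E14.5 (0.50 ± 0.40, adjusted p = 0.353). These 4 genes were picked out after their values were seen, and the part of the sex makeup of the pools in other results was not tested. As to the labelled material, 12 of 16 genes of the placenta, decidua and yolk sac list lay between 0.91 and 75.9 on all 4 arrays. The other 4, Apom, Rbp4, Cubn and Amn, which fetal liver, kidney or gut also make, lay between 56.1 and 8635.

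Between E14.5 and E18.5 far more genes rose than fell, and the rises were larger. Of 14045 genes tested, 1394 were higher at E18.5 (9.93%) and 405 lower (2.88%), while the median change over all genes was -0.09. The rises had a median of 1.78, with 581 genes up by at least 2 log2 units, 120 by at least 4 and 55 by at least 5. The falls had a median of -1.21, and 24 genes fell by at least 2 log2 units. The arrays of the 2 stages did not overlap for any called gene, nor for 10714 of all genes tested (76.3%). With a filter at the 75th percentile of the array 862 were higher, and with a pseudocount 4 times larger 235 were lower. By the adjusted p alone, without a minimum fold, 2446 genes (17.4%) were higher and 3041 (21.7%) lower. Counted per probe set, 7.51% of those with 1 gene symbol were higher and 2.79% lower, beside 4.59% and 2.16% of those with none or several.

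**Figure D1:**
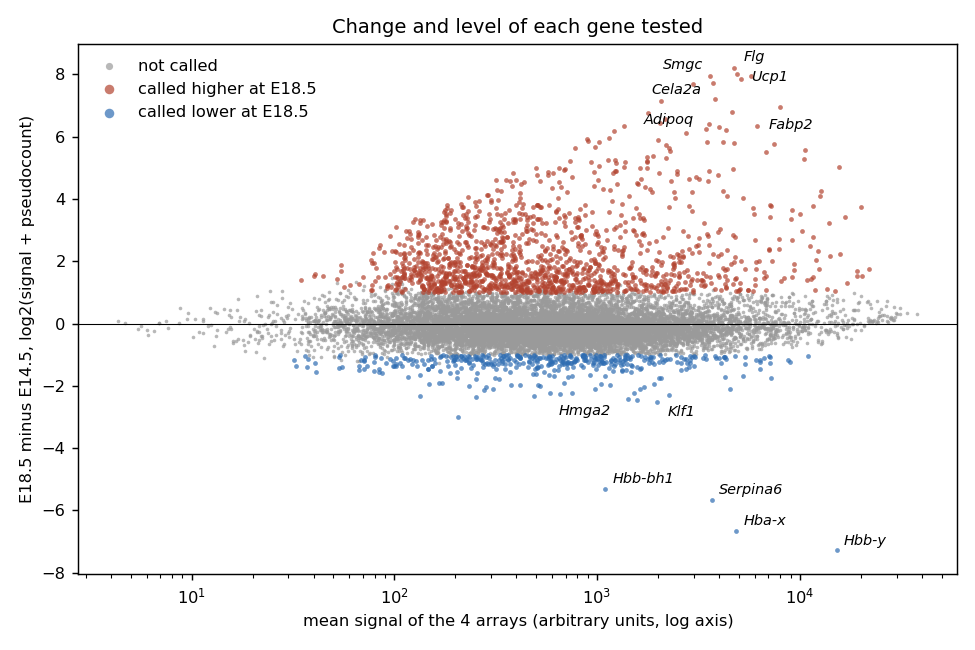
Change of each of the 14045 genes tested (vertical axis, log2 units, E18.5 minus E14.5) against its mean signal over the 4 arrays (horizontal axis, arbitrary units, log scale), with called genes in colour. Rises reach 8.20 for Flg, whereas only 4 falls, of Hbb-y, Hba-x, Serpina6 and Hbb-bh1, exceed 5 log2 units.

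The arrays of E16.5, which the comparison does not contrast, lay between the stages for most called genes. Both E16.5 arrays were between the E18.5 and the E14.5 arrays for 1154 of the 1394 genes that rose and for 320 of the 405 that fell, as for 4418 of all 14045 genes (31.5%). In 32 of the genes that rose, both E16.5 arrays were above every array of the other 2 stages.

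The largest rises were mostly of genes known from skin, brown fat, salivary gland, pancreas and gut. Tissues are named here from what is known of the genes and were not measured apart. The 15 described here leave out uncharacterised loci and probe sets that may cross-hybridise, among them that of Apoa4 of the gut (7.95 ± 0.44). The skin gave Flg, Hrnr, Lce1c, Lce1f, Calm4 and Crct1 among them, with changes of 6.80 to 8.20. Brown fat gave Ucp1, the mitochondrial protein that turns fuel into heat, at 9667 and 9821 at E18.5, against 7.22 and 16.8 at E14.5 (8.02 ± 0.49, adjusted p = 2.42e-10). The salivary gland gave Smgc, a secretory protein of the submandibular gland, at 7758 and 6685 at E18.5, against 2.69 and 4.27 at E14.5 (7.95 ± 0.35, adjusted p = 2.37e-12), together with Bpifa2 (7.22 ± 0.39). Bpifb9b, to which no tissue was assigned here, rose by 6.44 ± 0.48. The pancreas gave Cela2a, Cpb1 and Prss3, and the remaining 2 were Adipoq of fat cells and Fabp2 of the gut. At E14.5 most of these were near the background of the array, whose 25th percentile was 45.1 to 48.1: 196 of the 1394 genes that rose were below that percentile on both E14.5 arrays.

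To describe the tissues, 51 lists of marker and pathway genes were used, of which 785 genes were tested. Of these, 297 rose, 69 fell and 419 were not called, beside 9.93% and 2.88% of all genes. A further 127 list genes were under the signal filter. Genes under the filter, or with no probe set of that symbol alone, made up 226 list entries without a tested value. In that number a gene counts once for each of its lists. A list gene that is high at 1 stage alone passes the filter through that stage, whereas one that is low at both is not tested, so the filter bears on the share of a list that is called.

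**Figure D2:**
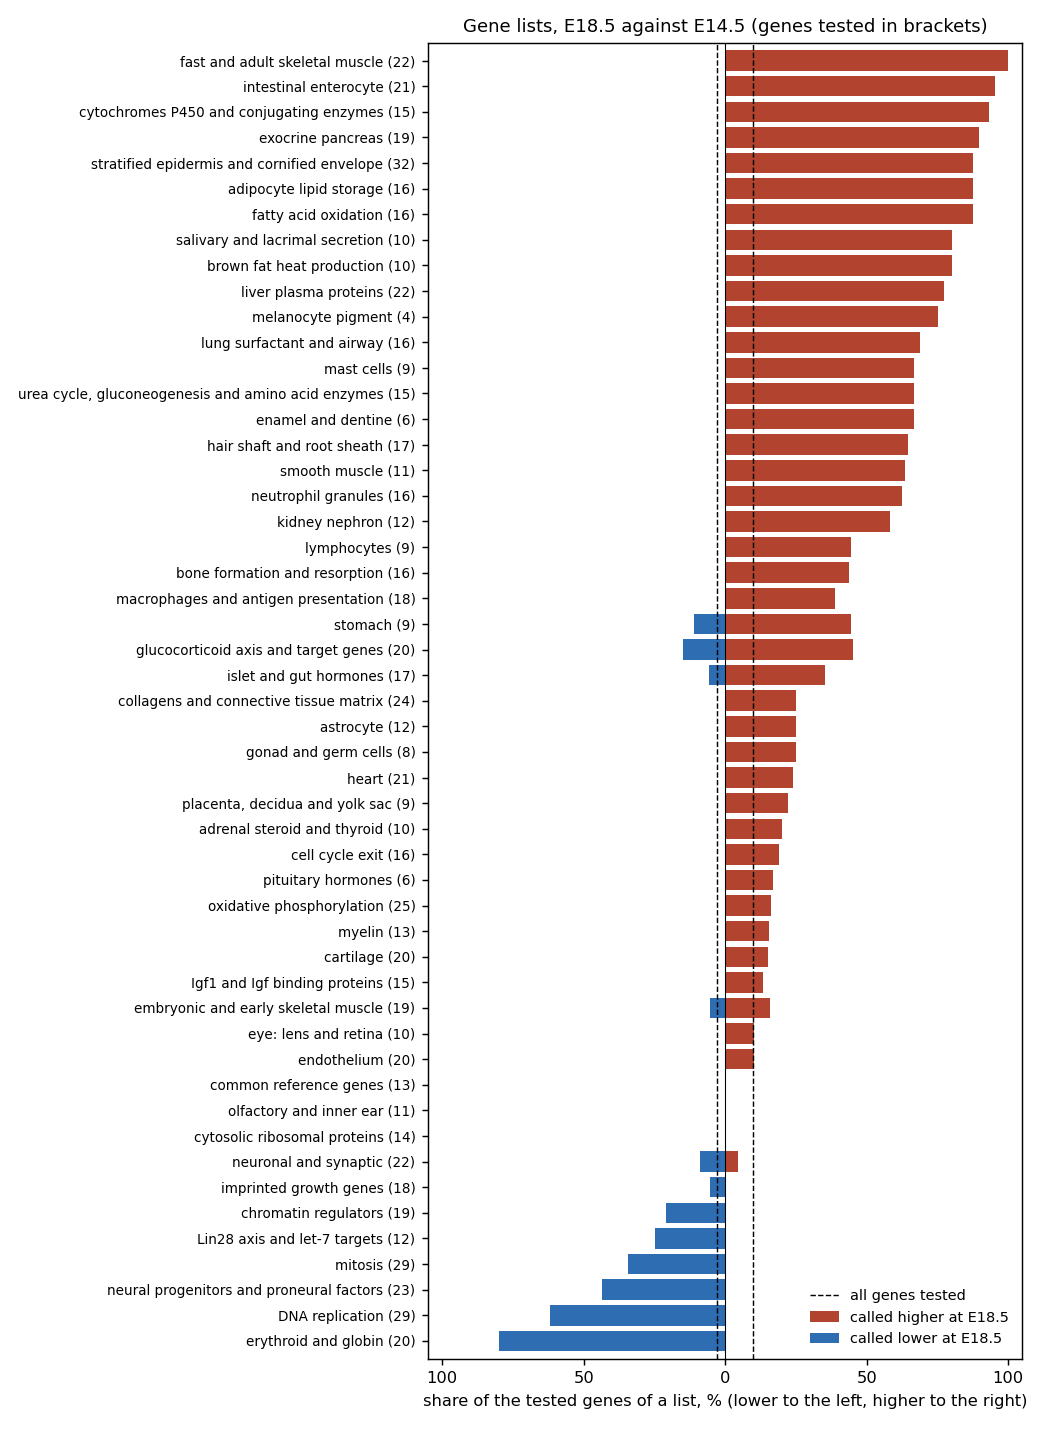
Share of the tested genes of each of the 51 lists (number tested in brackets) that were called higher at E18.5 (to the right) or lower (to the left), with the shares over all genes, 9.93% and 2.88%, as dashed lines. All 22 tested genes of the fast muscle list were higher, and 16 of the 20 of the erythroid and globin list were lower.

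The cornified layer of the skin had the largest median change of the lists, though 4 others had a higher share of rises. Of 32 tested genes of stratified epidermis and cornified envelope, 28 rose and 0 fell, with a median change of 3.72. Flg encodes filaggrin, which bundles keratin filaments in the outermost cells, and its signals were 9434 and 9513 at E18.5, against 8.74 and 4.20 at E14.5 (8.20 ± 0.35, adjusted p = 1.53e-12). Both pools of E14.5 were at background and both of E18.5 among the brighter genes. Lor, the main protein of the cornified envelope, was at 14003 and 15396 at E18.5, against 203 and 287 at E14.5 (5.78 ± 0.24, adjusted p = 1.35e-12). Krt10, a keratin of cells that have left the basal layer, was at 38003 and 36176 at E18.5, against 2772 and 2781 at E14.5 (3.73 ± 0.17, adjusted p = 2.34e-12), so it was already well above background at the earlier stage. Hrnr, a filaggrin relative, was at 9973 and 10394 at E18.5, against 16.9 and 19.2 at E14.5 (7.86 ± 0.27, adjusted p = 8.53e-14). Lce1a1, Lce1m and Rptn, further proteins of the envelope and its surroundings, rose by 6.10, 5.95 and 5.87. Krt77, a keratin of suprabasal skin, was not called between these stages, at 201 and 222 at E18.5, against 220.2 and 262 at E14.5 (-0.17 ± 0.45, adjusted p = 0.809), although it was at 6013 and 6224 at E16.5.

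The upstream windows of Lor and Krt10 are shown because the letters of a TATA box, TATAAA, in capitals, lie close to the start in both. Other motifs are not marked in these windows. Windows are the 150 bases before the RefSeq start in GRCm38.p6, at chr3:92083143-92083292 on the minus strand for Lor and chr11:99389365-99389514 on the minus strand for Krt10.
Lor: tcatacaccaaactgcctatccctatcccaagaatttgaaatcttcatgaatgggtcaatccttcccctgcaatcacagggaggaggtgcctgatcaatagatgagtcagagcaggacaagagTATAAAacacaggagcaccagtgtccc
Krt10: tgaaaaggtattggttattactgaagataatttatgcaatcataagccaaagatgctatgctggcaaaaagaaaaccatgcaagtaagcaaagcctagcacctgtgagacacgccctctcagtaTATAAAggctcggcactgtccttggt
In the full windows of 300 bases, 250 before and 50 after the start, TATAAA was found on either strand in 39.3% of the 28 windows of 26 genes of the epidermis list, in 20.4% of the 1302 windows of genes that rose, in 8.51% of those of all genes tested and in 13.6% of all 32851 RefSeq promoters. On the strand of the gene and 25 to 45 bases before the start, a range chosen after the data were seen, the shares were 35.7% for the epidermis list and 2.05% for all promoters. In that range they were 9.14% for genes that rose and 1.78% for all genes tested. A gene with several starts has several windows, and a match of letters is a description and not a bound site.

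The longest runs of neighbouring genes that rose lay on chromosome 3. The tested genes were put in the order of the RefSeq table, which placed 1390 of the called rises. Of these, 496 stood in 180 runs of adjacent genes that all rose, and 30 of the falls stood in 15 runs. With 9.93% of all genes higher, some neighbours would both rise by order alone, and how many was not computed. The longest run had 17 genes of chromosome 3, among them Sprr1b, Ivl, Lce1a1 and Lce3a, of the epidermal differentiation complex. A second run there had 12 genes, among them S100a8, S100a9 and Lor, and another had 8 with Crct1, Flg, Hrnr, Rptn and Tchh. On chromosome 3, 118 of 719 genes were higher (16.4%), beside 9.93% of all genes tested and 13.1% on chromosome 16. Hair keratin-associated genes formed a run of 11 on chromosome 16, keratins runs of 8 on chromosome 15 and of 7 on chromosome 11, and the kallikreins Klk5 to Klk13 a run of 7 on chromosome 7. Members of these families are similar in sequence, and probe sets may share signal between them.

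Hair and pigment genes also rose. Of 17 tested genes of the hair shaft and root sheath, 11 rose, with a median change of 2.62. Krt34, a hair shaft keratin, was at 449 and 392 at E18.5, against 8.41 and 5.80 at E14.5 (3.76 ± 0.36, adjusted p = 1.03e-07), and Krt25, a keratin of the inner root sheath, at 898 and 1097 at E18.5, against 64.6 and 39.5 at E14.5 (3.73 ± 0.35, adjusted p = 7.67e-08). Many of these genes are dim, and with a filter at the 75th percentile of the array the count was 3. Of 4 pigment genes tested, 3 rose, among them Dct, an enzyme of melanin synthesis, at 809.7 and 763 at E18.5, against 303 and 301 at E14.5 (1.31 ± 0.36, adjusted p = 0.00704).

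Fat and its oxidation formed another large group. In the list of adipocyte lipid storage, 14 of 16 tested genes rose, with a median change of 2.72. Adipoq, the hormone adiponectin, was at 7085 and 7050.3 at E18.5, against 59.7 and 54.1 at E14.5 (6.42 ± 0.36, adjusted p = 5.98e-11), and Fabp4, a fatty acid carrier, at 31489.6 and 29205 at E18.5, against 883 and 938 at E14.5 (5.02 ± 0.31, adjusted p = 3.19e-10), so neither pool of one stage came near those of the other. Cidec and Plin4, which coat lipid droplets, rose by 4.42 ± 0.41 and 4.26 ± 0.46. In the list of brown fat heat production, 8 of 10 rose (median 2.10). Beside Ucp1, these included Cidea, at 7708 and 8095 at E18.5, against 80.9 and 65.6 at E14.5 (6.33 ± 0.43, adjusted p = 1.1e-09), and Cox8b and Cox7a1, cytochrome oxidase subunits of muscle and brown fat, which rose by 4.91 ± 0.35 and 4.52 ± 0.21. Pdk4, a kinase that spares glucose, rose by 2.72 ± 0.41. Of 16 tested genes of fatty acid oxidation 14 rose, by smaller amounts (median 1.63). Acadm and Acadl, dehydrogenases for medium and long chains, were at 10230.0 and 9959.8 at E18.5, against 2559 and 2463 at E14.5 (2.00 ± 0.08, adjusted p = 1.15e-12) and at 9607 and 9769 at E18.5, against 2459 and 2475 at E14.5 (1.96 ± 0.13, adjusted p = 5.42e-10). These enzymes were thus bright at both stages, unlike Ucp1.

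The mitochondrial chain as a whole moved less. Of 25 tested genes of oxidative phosphorylation, 4 rose at least 2-fold, namely Cox8b, Cox7a1, Cox6a2 (2.23 ± 0.17), which are muscle and brown fat forms, and Uqcrfs1 (1.08 ± 0.09). By the adjusted p alone all 25 were higher, with a median change of 0.72, beside 17.4% of all genes. The call of Uqcrfs1 was lost after quantile normalization.

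Every tested gene of the fast and adult skeletal muscle list rose, 22 of 22, with a median change of 3.32. Myh1 and Myh2 encode fast adult myosin heavy chains. Myh1 was at 3282 and 2868 at E18.5, against 110.3 and 117 at E14.5 (4.47 ± 0.38, adjusted p = 1.91e-08) and Myh2 at 621 and 500.2 at E18.5, against 6.03 and 9.36 at E14.5 (4.12 ± 0.45, adjusted p = 4.72e-07). Myh8, the perinatal myosin, was at 27070.3 and 23212 at E18.5, against 2777 and 2499.9 at E14.5 (3.24 ± 0.27, adjusted p = 1.4e-08). Ckm, the creatine kinase of muscle, was at 24195 and 23361 at E18.5, against 1366 and 1379 at E14.5 (4.09 ± 0.46, adjusted p = 6.93e-07), with pools of a stage within a few percent of each other. Its SE comes from the fit to all stages and not from these pools alone. Embryonic and early muscle genes behaved otherwise: of 19 tested, 3 rose and 1 fell, with a median change of 0.13. Myh3, the embryonic myosin, was at 13050.4 and 11204 at E18.5, against 7328 and 7397 at E14.5 and stayed under the 2-fold minimum (0.71 ± 0.21, adjusted p = 0.0118), and Tnni1, the slow troponin I, was at 5703 and 5729.7 at E18.5, against 5144 and 5539.6 at E14.5 (0.10 ± 0.13, adjusted p = 0.608). Pax7, a factor of muscle stem cells, fell (111 and 124 at E18.5, against 296 and 282 at E14.5; -1.14 ± 0.26, adjusted p = 0.00142), a call lost with a pseudocount 4 times larger and with the mean of all its probe sets.

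Smooth muscle and heart genes rose less. Of 11 tested genes of smooth muscle 7 rose (median 1.32), among them Actg2, the enteric smooth muscle actin, at 4061 and 4159 at E18.5, against 903 and 979 at E14.5 (2.10 ± 0.28, adjusted p = 7.73e-06). Of 21 tested genes of the heart 5 rose (median 0.49), led by Casq2, which binds calcium in the sarcoplasmic reticulum, at 7528 and 7089 at E18.5, against 1548 and 1268 at E14.5 (2.36 ± 0.47, adjusted p = 0.000493). The count was 3 without the first E14.5 array. Myh6 and Myh7, the cardiac myosins, were at 927 and 1106 at E18.5, against 665 and 537 at E14.5 and at 2761 and 2826 at E18.5, against 1848 and 1861 at E14.5, both under the 2-fold minimum.

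The gut lining and the exocrine pancreas rose almost as whole lists. Of 21 tested genes of the intestinal enterocyte, 20 rose, with a median change of 3.36. Apoa4, an apolipoprotein of chylomicrons, was at 11186 and 11854 at E18.5, against 24.4 and 17.3 at E14.5 (7.95 ± 0.44, adjusted p = 5.98e-11). Fabp2, the intestinal fatty acid carrier, was at 11374 and 13060.1 at E18.5, against 125 and 123 at E14.5 (6.35 ± 0.27, adjusted p = 1.53e-12), and Lct, the lactase that splits milk sugar, at 1984 and 2456 at E18.5, against 24.5 and 41.3 at E14.5 (5.26 ± 0.37, adjusted p = 1.95e-09). Alpi, the brush border phosphatase, rose by 4.62 ± 0.45. Of 19 tested genes of the exocrine pancreas 17 rose (median 3.38). Cela2a, an elastase, was at 8052 and 6766 at E18.5, against 2.79 and 17.0 at E14.5 (7.72 ± 0.36, adjusted p = 4.16e-12), Cpb1, a carboxypeptidase, at 3954 and 3141 at E18.5, against 8.13 and 5.48 at E14.5 (6.77 ± 0.34, adjusted p = 1.73e-11), and Ctrb1, a chymotrypsinogen, at 10644 and 8079 at E18.5, against 128 and 158 at E14.5 (5.79 ± 0.40, adjusted p = 1.39e-09). For these enzymes the second E18.5 pool read lower than the first, and both were far above E14.5.

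Other secretory and endocrine tissues gave smaller lists. Of 10 tested genes of salivary and lacrimal secretion 8 rose (median 3.02). Pip, a secreted protein of these glands, was at 982 and 1016 at E18.5, against 22.8 and 3.16 at E14.5 (4.77 ± 0.55, adjusted p = 1.09e-06). Of 9 tested stomach genes 4 rose and 1 fell, and the largest rise was that of Gkn2 (3.26 ± 0.48). Pga5, a pepsinogen that is not in the stomach list, was at 7436 and 8948 at E18.5, against 106 and 131 at E14.5 (5.83 ± 0.31, adjusted p = 2.92e-11). In the islet and gut hormone list 6 of 17 rose and 1 fell: Ins2, an insulin gene, was at 794 and 1105 at E18.5, against 145 and 68.9 at E14.5 (2.92 ± 0.58, adjusted p = 0.000473), Gip, a gut hormone, at 191 and 266 at E18.5, against 9.44 and 8.15 at E14.5 (2.86 ± 0.43, adjusted p = 2.61e-05), and Isl1, a factor of islet and neural precursors, fell (358 and 427 at E18.5, against 889 and 1020.3 at E14.5; -1.23 ± 0.13, adjusted p = 5.14e-07). The islet count was 2 with the filter at the 75th percentile. Of 6 pituitary genes tested 1 was called, Gh, growth hormone, at 228 and 564 at E18.5, against 86.0 and 83.3 at E14.5 (1.81 ± 0.49, adjusted p = 0.00608). Its E18.5 pools differ widely from each other, and the call is lost without the second of them. All 4 of its tested probe sets were called higher, with changes of 1.81 to 3.46.

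Genes of the liver lists rose, both those of plasma proteins and those of metabolism. In RNA of whole fetuses, the tissue that made each transcript cannot be told. In the list of liver plasma proteins 17 of 22 tested genes rose (median 1.60). Hp, haptoglobin, was at 5590.4 and 6723 at E18.5, against 208 and 229 at E14.5 (4.66 ± 0.26, adjusted p = 6.85e-11) and Apoc3, an apolipoprotein, at 3059 and 3832 at E18.5, against 71.7 and 62.8 at E14.5 (5.21 ± 0.28, adjusted p = 3.6e-11). Ahsg, a fetal plasma glycoprotein, was at 17355 and 19081 at E18.5, against 2214 and 2398 at E14.5 (2.97 ± 0.26, adjusted p = 3.69e-08). The 5 members not called were Afp, Alb, Ambp, Apoa2 and Ttr. Alb, albumin, was at 38134 and 33726 at E18.5, against 20221 and 32405 at E14.5 (0.49 ± 0.36, adjusted p = 0.314), and Afp, alpha-fetoprotein, at 31932 and 33271 at E18.5, against 19938 and 33823 at E14.5 (0.33 ± 0.28, adjusted p = 0.389). The signals of Alb and Afp lie at the top of the range, where the E14.5 arrays differ from each other as described for the brightest genes. Of 15 tested genes of the urea cycle, gluconeogenesis and amino acid breakdown, 10 rose (median 2.08). Cps1, the first enzyme of the urea cycle, was at 7126 and 8105 at E18.5, against 271 and 235 at E14.5 (4.78 ± 0.34, adjusted p = 2.35e-09). Fbp1, of gluconeogenesis, was at 7670.1 and 9360.3 at E18.5, against 79.0 and 97.0 at E14.5 (6.23 ± 0.38, adjusted p = 2.58e-10), and G6pc, which releases glucose from the liver cell, at 426 and 601 at E18.5, against 7.35 and 10.4 at E14.5 (3.94 ± 0.49, adjusted p = 2.51e-06). Of 15 tested cytochromes P450 and conjugating enzymes 14 rose (median 2.71), 7 with the filter at the 75th percentile. Cyp2e1, which oxidises small molecules such as ethanol, was at 2140.1 and 2523 at E18.5, against 26.8 and 103 at E14.5 (4.84 ± 0.47, adjusted p = 1.09e-07), and Cyp7a1, the rate-limiting enzyme of bile acid synthesis, at 472 and 539.6 at E18.5, against 50.7 and 24.9 at E14.5 (3.09 ± 0.47, adjusted p = 3.14e-05).

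Serpina6, which encodes the glucocorticoid-binding globulin of plasma, went against the other liver genes. It was at 90.0 and 154 at E18.5, against 6798 and 7736 at E14.5 (-5.65 ± 0.32, adjusted p = 8.12e-11), the largest fall outside the globins, with both E18.5 pools far below both E14.5 pools. Among 20 tested genes of the glucocorticoid axis and its targets, 9 rose and 3 fell, with a median change of 0.63. Hsd11b1, which regenerates active glucocorticoid, was at 1277 and 1655 at E18.5, against 173 and 199 at E14.5 (2.81 ± 0.40, adjusted p = 1.22e-05), and Klf9, a target of the hormone receptor, at 1724 and 1863 at E18.5, against 420.0 and 350.1 at E14.5 (2.15 ± 0.16, adjusted p = 3.3e-09). The other falls were the metallothioneins Mt1 and Mt2, with Mt2 at 3418 and 2788 at E18.5, against 7042 and 8248 at E14.5 (-1.30 ± 0.15, adjusted p = 1.03e-06). Igfbp1, a liver protein that binds insulin-like growth factors, rose (12737 and 14059 at E18.5, against 885 and 969 at E14.5; 3.82 ± 0.38, adjusted p = 1.71e-07). It was 1 of 2 rises among 15 tested genes of that system, a share of 13.3% beside 9.93% of all genes. Igf2, the fetal growth factor, was at 21946 and 22199 at E18.5, against 13832 and 19658 at E14.5 and under the 2-fold minimum (0.42 ± 0.14, adjusted p = 0.0251). Of 18 imprinted growth genes tested 0 rose and 1, Phlda2, fell (-1.18 ± 0.17), a call lost without the first E18.5 array.

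In the lung list 11 of 16 tested genes rose, with a median change of 2.87. Sftpc, surfactant protein C, was at 20091 and 20733 at E18.5, against 494 and 494 at E14.5 (5.30 ± 0.42, adjusted p = 8.49e-09), and Sftpa1 and Sftpb, further surfactant proteins, rose by 4.56 ± 0.48 and 2.77 ± 0.33. Scgb1a1, the secretory protein of airway club cells, was at 2706 and 2098 at E18.5, against 10.6 and 3.88 at E14.5 (6.19 ± 0.41, adjusted p = 6.83e-10). Scgb1a1 was thus at background at the earlier stage while Sftpc was not. Scgb3a2, another gene of the list, was at 7558 and 6121 at E18.5, against 87.6 and 99.6 at E14.5 (5.84 ± 0.33, adjusted p = 5.98e-11). Ager, a marker of the flat cells of the air sacs, was at 612 and 646 at E18.5, against 24.6 and 9.70 at E14.5 (3.95 ± 0.37, adjusted p = 6.98e-08).

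Kidney, bone and matrix genes rose in part. Of 12 tested nephron genes 7 rose (median 1.23), such as the transporters Slc12a1 (323 and 352 at E18.5, against 32.4 and 30.8 at E14.5; 2.66 ± 0.48, adjusted p = 0.000199) and Slc34a1 (2.42 ± 0.52). Of 16 tested genes of bone formation and resorption 7 rose (median 0.84). Mmp13, a collagenase of hypertrophic cartilage and bone cells, was at 4183 and 4417 at E18.5, against 92.2 and 74.5 at E14.5 (5.31 ± 0.34, adjusted p = 4.04e-10), Dmp1, of osteocytes, at 2869 and 3357 at E18.5, against 279.9 and 289 at E14.5 (3.33 ± 0.33, adjusted p = 1.25e-07), and Ctsk, the osteoclast protease, at 4625 and 4929 at E18.5, against 835 and 937 at E14.5 (2.40 ± 0.23, adjusted p = 1.09e-07). Of 20 tested cartilage genes 3 rose, a share of 15% beside 9.93% of all genes, and the list's median change was -0.04. Of 24 tested collagens and matrix genes 6 rose, and 18 were higher by the adjusted p alone, with a median of 0.78. Ambn, an enamel matrix protein, was at 698 and 523 at E18.5, against 48.6 and 66.9 at E14.5 (2.92 ± 0.43, adjusted p = 1.81e-05), 1 of 4 rises among 6 tested genes of enamel and dentine. With the filter at the 75th percentile the enamel count was 0 and the nephron count 4.

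White blood cell genes rose while red cell genes fell. Of 16 tested neutrophil granule genes 10 rose, with a median change of 2.19. Ngp, a secondary granule protein, was at 5253 and 5908 at E18.5, against 783 and 822 at E14.5 (2.76 ± 0.46, adjusted p = 7.6e-05), Ltf, lactoferrin, at 1572 and 1941 at E18.5, against 262 and 263 at E14.5 (2.62 ± 0.33, adjusted p = 2.55e-06), and Chil3 at 1134 and 1264 at E18.5, against 29.4 and 7.43 at E14.5 (4.83 ± 0.45, adjusted p = 7.6e-08). The primary granule genes Mpo, Elane, Prtn3 and Ctsg, made earlier in the life of the cell, were not called, with Mpo at 1228 and 1423 at E18.5, against 1867 and 1839 at E14.5 (-0.48 ± 0.33, adjusted p = 0.271). Of 9 tested mast cell genes 6 rose (median 2.94), such as the proteases Mcpt4 (1483 and 1617 at E18.5, against 3.43 and 8.28 at E14.5; 5.64 ± 0.37, adjusted p = 7.11e-10) and Cma1 (3784 and 4215 at E18.5, against 469 and 441 at E14.5; 3.06 ± 0.45, adjusted p = 2.16e-05). Rag1, which cuts antigen receptor genes in developing lymphocytes, was at 609 and 518 at E18.5, against 50.5 and 42.1 at E14.5 (3.03 ± 0.43, adjusted p = 1.17e-05), 1 of 4 rises among 9 tested lymphocyte genes. In the macrophage list 7 of 18 rose, and Cd163, a scavenger receptor, was at 320.2 and 339 at E18.5, against 24.5 and 31.3 at E14.5 (2.73 ± 0.40, adjusted p = 1.82e-05). The macrophage count was 3 with a pseudocount 4 times larger.

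No gene of the erythroid and globin list rose, and 16 of 20 tested fell, with a median change of -1.84. The embryonic globins fell furthest. Hbb-y was at 167 and 159.5 at E18.5, against 22578 and 37806 at E14.5 (-7.27 ± 0.20, adjusted p = 3.11e-15), Hba-x at 62.7 and 78.2 at E18.5, against 9197 and 10116 at E14.5 (-6.65 ± 0.40, adjusted p = 2.12e-10) and Hbb-bh1 at 64.7 and 7.77 at E18.5, against 2069 and 2231 at E14.5 (-5.30 ± 0.29, adjusted p = 4.09e-11). For each of the 3, both E18.5 pools were far below both E14.5 pools, and the E14.5 pools of Hbb-y differ as described for the brightest genes. The remaining falls were smaller, and many were of regulators and membrane proteins. Klf1, a transcription factor of red cell precursors, was at 538 and 601 at E18.5, against 3300.1 and 3461 at E14.5 (-2.52 ± 0.28, adjusted p = 5.96e-07), Rhd, of the Rh blood group complex, at 441 and 495 at E18.5, against 2501 and 2888 at E14.5 (-2.46 ± 0.22, adjusted p = 5.05e-08), and Kel, a blood group protease, at 477 and 563 at E18.5, against 2596 and 2438 at E14.5 (-2.22 ± 0.25, adjusted p = 7.76e-07). Ermap and Hemgn fell by -2.30 ± 0.41 and -2.09 ± 0.25, and Car2, a cytosolic carbonic anhydrase, by -1.05 ± 0.20. Outside the list, Icam4 fell by -2.27 ± 0.24 and Redrum, a long noncoding RNA of red cells, by -2.14 ± 0.32. The signals of the 21 list genes with a value summed to 31532 and 33419 at E18.5, against 113994 and 140489 at E14.5. Among these is Hba-a1, an adult alpha globin gene, whose probe set was under the signal filter, at 3.23 and 39.8 at E18.5, against 7.31 and 19.3 at E14.5. Probe sets that carry several globin symbols are not analysed here.

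Every tested gene of the replication and mitosis lists had a negative difference, many of them less than 2-fold. Of 29 tested genes of DNA replication 18 fell, with a median change of -1.07, and 28 were lower by the adjusted p alone, beside 21.7% of all genes. Cdc6, which loads the replicative helicase, was at 499.9 and 509 at E18.5, against 1675 and 1670.1 at E14.5 (-1.68 ± 0.10, adjusted p = 1.41e-10). Mcm5, a subunit of that helicase, was at 2413 and 2317 at E18.5, against 6328 and 5250.2 at E14.5 (-1.28 ± 0.10, adjusted p = 7.03e-09). Ccne1, cyclin E1, which drives entry into S phase, was at 465 and 402 at E18.5, against 1339 and 1486 at E14.5 (-1.65 ± 0.36, adjusted p = 0.00102). Of 29 tested genes of mitosis 10 fell (median -0.89), and all 29 were lower by the adjusted p alone. Ube2c, an enzyme of the anaphase-promoting system, was at 2482 and 2895 at E18.5, against 5499.5 and 6367 at E14.5 (-1.13 ± 0.11, adjusted p = 1.78e-07), Mki67, a marker of cycling cells, at 3501 and 3386 at E18.5, against 7577 and 7062 at E14.5 (-1.08 ± 0.10, adjusted p = 3.63e-08), and Cdk1, the mitotic kinase, at 2312 and 2539.9 at E18.5, against 3995 and 4410.0 at E14.5 and under the 2-fold minimum (-0.79 ± 0.09, adjusted p = 6.7e-07). The pools of the stages did not overlap for any of these 6, as for every called gene and for 76.3% of all genes tested. The counts move with the processing: the mitosis count was 16 after quantile normalization and 6 with a pseudocount 4 times larger, and the replication count 11 with the mean of all probe sets.

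Genes that stop the cycle rose in small number. Of 16 tested genes of cell cycle exit 3 rose, namely Ccng1, a p53 target, at 6681 and 6456 at E18.5, against 2052 and 1892 at E14.5 (1.72 ± 0.09, adjusted p = 1.91e-11), Cdkn1a, an inhibitor of cyclin-dependent kinases, at 2137 and 1962 at E18.5, against 799 and 799.8 at E14.5 (1.33 ± 0.19, adjusted p = 1.25e-05), and Cdkn2b (1.70 ± 0.41). The list's median change was 0.05. The call of Cdkn1a was lost with the mean of all its probe sets.

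Promoter windows of genes in the mitosis and replication lists hold motifs known from cell cycle genes, and 4 of genes that fell are shown, each as the 150 bases before the RefSeq start in GRCm38.p6. In Ube2c (chr2:164769779-164769928, plus strand) and Cdca8 (chr4:124936918-124937067, minus strand) capitals mark CCAAT boxes (CCAAT) and the cell cycle homology region (TTTGAA), on either strand. In Mcm6 (chr1:128359706-128359855, minus strand) and Mcm5 (chr8:75109359-75109508, plus strand) they mark E2F sites (TTGGCGC) and CCAAT boxes, on either strand.
Ube2c: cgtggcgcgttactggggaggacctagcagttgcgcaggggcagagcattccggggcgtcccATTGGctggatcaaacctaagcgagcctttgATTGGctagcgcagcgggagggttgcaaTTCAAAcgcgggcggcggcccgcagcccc
Cdca8: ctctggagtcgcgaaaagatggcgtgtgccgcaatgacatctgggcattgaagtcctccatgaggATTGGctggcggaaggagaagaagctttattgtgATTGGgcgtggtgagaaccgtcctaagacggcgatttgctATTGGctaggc
Mcm6: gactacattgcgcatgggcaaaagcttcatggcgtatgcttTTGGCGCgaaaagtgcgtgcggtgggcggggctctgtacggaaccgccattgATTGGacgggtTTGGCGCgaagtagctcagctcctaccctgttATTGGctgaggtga
Mcm5: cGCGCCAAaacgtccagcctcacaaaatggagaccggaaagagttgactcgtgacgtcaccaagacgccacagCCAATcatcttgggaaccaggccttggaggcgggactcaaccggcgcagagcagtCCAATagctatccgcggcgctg
Over the full windows of 300 bases, CCAAT and TTTGAA were each found in 76% of the 25 windows of the mitosis list, against 37.4% and 17.9% of all 32851 RefSeq promoters. TTGGCGC was found in 24.1% of the 29 windows of the replication list, against 2.45% of all promoters. CCAAT was found in 49.1% of the 405 windows of the 313 genes that fell and had a window, TTTGAA in 14.8% and TTGGCGC in 5.93%. In the windows of all genes tested the shares were 37.3%, 12.3% and 4.02%, in that order. The letters of a CCAAT box on the opposite strand, ATTGG, can overlap those of TTGGCGC. In Cdca8 the cell cycle homology region lies after the start and is therefore not in the stretch shown.

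**Figure D3:**
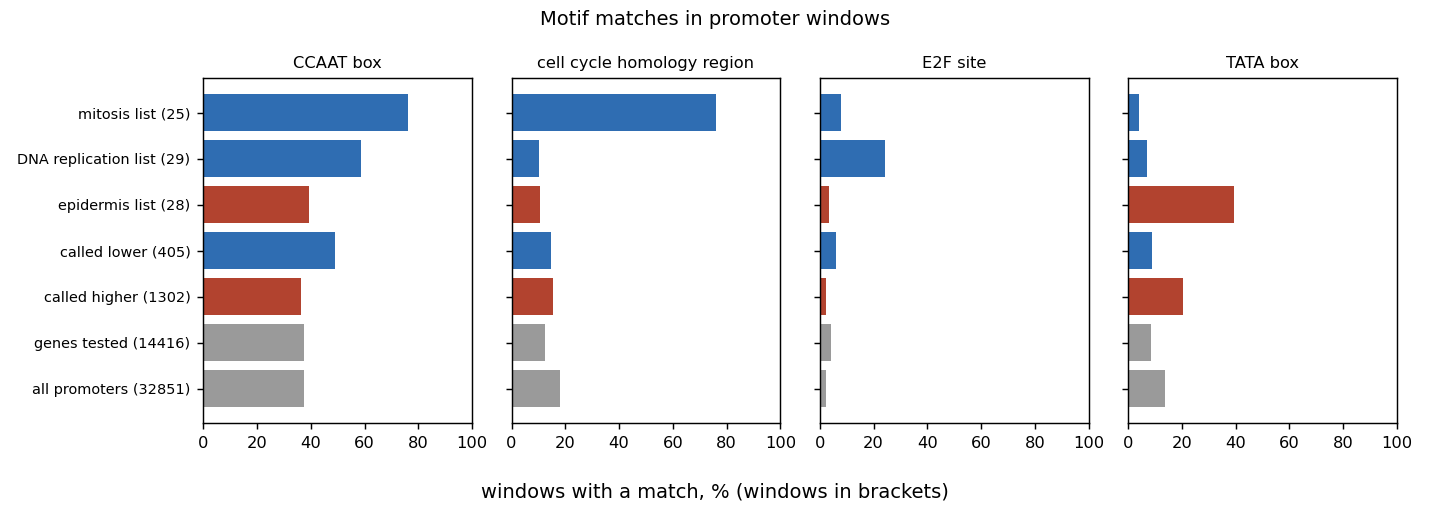
Share of promoter windows of 300 bases (number in brackets) that hold each of 4 motifs on either strand, for 3 gene lists, for genes called lower and higher at E18.5, for all genes tested and for all RefSeq promoters. The mitosis list stands at 76% for CCAAT and for the cell cycle homology region, and the epidermis list at 39.3% for the TATA box.

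Some genes known from the young embryo also fell. Hmga2, a chromatin protein of growing tissue and a target of the microRNA let-7, was at 418 and 426 at E18.5, against 2674 and 2138 at E14.5 (-2.43 ± 0.22, adjusted p = 5.59e-08), and Igf2bp1, an RNA-binding protein that let-7 also represses, at 303 and 248 at E18.5, against 939 and 960.4 at E14.5 (-1.70 ± 0.11, adjusted p = 9.31e-10). They were 2 of 3 falls among 12 tested genes of the Lin28 axis, whose median change was -0.57. Of 19 tested chromatin regulators 4 fell, such as Ezh2, the methyltransferase of Polycomb complex PRC2, at 1581 and 1362 at E18.5, against 3560.5 and 3379 at E14.5 (-1.23 ± 0.09, adjusted p = 3.21e-09), and Hells (-1.17 ± 0.14). The chromatin count was 1 with the mean of all probe sets and 7 after quantile normalization.

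In the nervous system, progenitor genes fell and few others moved. Of 23 tested genes of neural progenitors and proneural factors 10 fell and 0 rose, with a median change of -0.84. Neurog2, which starts neuron formation, was at 85.8 and 47.5 at E18.5, against 488 and 389 at E14.5 (-2.35 ± 0.24, adjusted p = 2.25e-07), Eomes, of intermediate cortical progenitors, at 99.5 and 99.5 at E18.5, against 438 and 370.1 at E14.5 (-1.77 ± 0.31, adjusted p = 0.000137), and Sox2, of neural stem cells, at 632 and 582 at E18.5, against 1396 and 1369 at E14.5 (-1.16 ± 0.14, adjusted p = 2.7e-06). The count was 6 with a pseudocount 4 times larger. Of 22 tested neuronal and synaptic genes 1 rose and 2 fell (median -0.24). Elavl4, an RNA-binding protein of young neurons, fell (485 and 417 at E18.5, against 1378 and 1111 at E14.5; -1.41 ± 0.21, adjusted p = 2.29e-05), and Snap25, of the synaptic release machinery, was at 1227 and 924 at E18.5, against 1043 and 872 at E14.5 and was not called (0.16 ± 0.42, adjusted p = 0.811). Crabp1, a carrier of retinoic acid in neural and mesenchymal cells, fell (545 and 643 at E18.5, against 2442 and 2865 at E14.5; -2.11 ± 0.11, adjusted p = 3.33e-11).

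Among glia, Aqp4, the water channel of astrocytes, was at 307 and 321 at E18.5, against 51.3 and 56.0 at E14.5 (2.10 ± 0.29, adjusted p = 1.02e-05), 1 of 3 rises among 12 tested astrocyte genes. Of 13 tested myelin genes 2 rose, a share of 15.4% beside 9.93% of all genes. Mbp, myelin basic protein, was at 265 and 317 at E18.5, against 374 and 373 at E14.5 on the probe set used for it and was not called (-0.34 ± 0.20, adjusted p = 0.186), but 4 of its 7 probe sets were called higher, with changes over the 7 between -0.89 and 1.90. The gene's result therefore rests on the choice of probe set.

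Lists with a general role gave few calls. Of 14 cytosolic ribosomal protein genes tested none was called (median 0.10), and none by the limma adjusted p alone. Of 13 common reference genes none was called at 2-fold (median 0.31). By the limma adjusted p alone 5 were higher and 3 lower, beside 17.4% and 21.7% of all genes. Gapdh, the glycolytic enzyme, was at 32368 and 30558 at E18.5, against 17451 and 26376 at E14.5 (0.55 ± 0.18, adjusted p = 0.0226). Among tissue lists, 2 of 20 tested endothelial genes rose (median 0.44), a share of 10% beside 9.93% of all genes. Of 11 genes of the olfactory system and inner ear none was called.

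The 4 days were also divided at E16.5. The 2 steps share the E16.5 arrays, and each shares arrays with the comparison of E18.5 against E14.5, so their values are given side by side and not as independent support. In the first 2 days 506 genes were higher (3.6%) and 25 lower (0.178%), and in the last 2 days 494 were higher (3.52%) and 109 lower (0.776%). Without 1 array these counts were 332 to 367, 18 to 40, 333 to 387 and 87 to 114, in that order, with 332 without the second E16.5 array, 334 without the first E14.5 array and 40 without the first E16.5 array. The 1394 genes that rose over the 4 days had median changes of 0.89 in the first step and 0.86 in the last. Of these, 491 were called in the first, 481 in the last, 193 in both and 615 in neither. The 405 genes that fell had medians of -0.50 and -0.75, and 18 were called lower in the first step and 86 in the last.

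The difference between the steps was tested as the last change minus the first. It was called positive for 50 genes (0.356%) and negative for 110 (0.783%). These counts were 19 to 32 and 38 to 82 without 1 array, lowest without the second E16.5 array, and 16 and 55 with a pseudocount 4 times smaller. In the epidermis list 13 genes were called negative and 3 positive: the median change was 2.94 in the first step and 0.62 in the last. Lor had differences of 5.49 in the first step and 0.29 in the last (adjusted p of the difference 3.22e-07), whereas Flg had 1.99 and 6.22 (adjusted p of the difference 0.000511). Members of this layer thus differed in timing. Ucp1 had differences of 0.46 and 7.56 (adjusted p 7.2e-05), with 13.5 and 41.8 at E16.5. Smgc and Bpifa2 of the salivary gland, with differences of 3.15 and 5.20, also gained more in the last step, as did Scgb1a1 of the airway, G6pc of the liver and Myh1 of fast muscle, with 5.23, 4.16 and 4.45. The adjusted p was 0.00897 for Smgc, 0.000188 for Bpifa2, 0.000276 for Scgb1a1, 0.0127 for G6pc and 0.000644 for Myh1. With a pseudocount 4 times smaller the differences of these 5 and of Flg were not called. That of Smgc was also lost without the first E18.5 or either E16.5 array and with the mean of its probe sets, and that of G6pc without the second E18.5 or either E16.5 array. Unlike Scgb1a1, Scgb3a2 of the same list had 3.52 in the first step and 2.32 in the last, a difference that was not called (adjusted p 0.492).

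The red cell list was called in the last step in the main. Of its 20 tested genes 3 were lower in the first 2 days and 16 in the last, with medians of -0.17 and -1.81, and the difference was called negative for 6. The 3 called in the first step were Hbb-y, Hba-x and Hbb-bh1, and Klf1 had differences of -0.59 in the first step and -1.93 in the last (adjusted p of the difference 0.264). Serpina6 had differences of -0.19 and -5.46 (adjusted p of the difference 1.72e-05), so that its fall stood in the last 2 days. Ube2c had -0.08 and -1.06 (adjusted p of the difference 0.0115), a difference under the 2-fold minimum and so not called. In the fatty acid oxidation list 0 genes were called in the first step and 10 in the last, yet the difference was called for 0, so no gene of that list is shown to have gained more in the last step. In the enterocyte list 14 genes were higher in either step, with medians of 1.85 and 1.48.

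**Figure D4:**
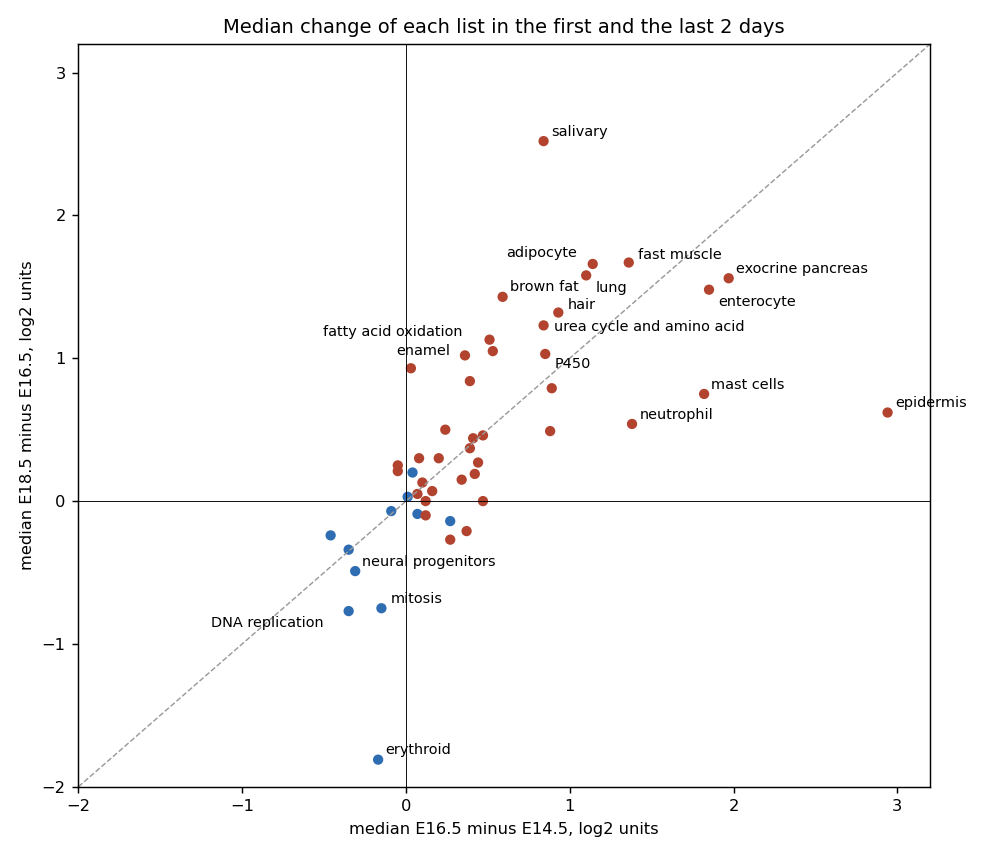
Median change of each list with at least 6 tested genes in the first 2 days (horizontal axis, E16.5 minus E14.5) and the last 2 days (vertical axis, E18.5 minus E16.5), in log2 units, with lists of positive median over the 4 days in red and the others in blue. The steps share the E16.5 arrays, and the dashed line marks equal change. The epidermis lies far to the right (2.94 and 0.62) and the erythroid list low (-0.17 and -1.81).

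Some genes peaked at E16.5 and so differ little, or less than they moved, between the ends. Krtap13, a keratin-associated gene, had signals of 34.0 and 26.7 at E14.5, 7274 and 7404 at E16.5 and 298 and 359.8 at E18.5. Krt77 had 220.2 and 262 at E14.5, 6013 and 6224 at E16.5 and 201 and 222 at E18.5. Orm1, an acute-phase plasma protein, had 4.45 and 1.27 at E14.5, 1064 and 979 at E16.5 and 533 and 378 at E18.5. Both E16.5 pools exceeded all others in each of these genes.

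**Figure D5:**
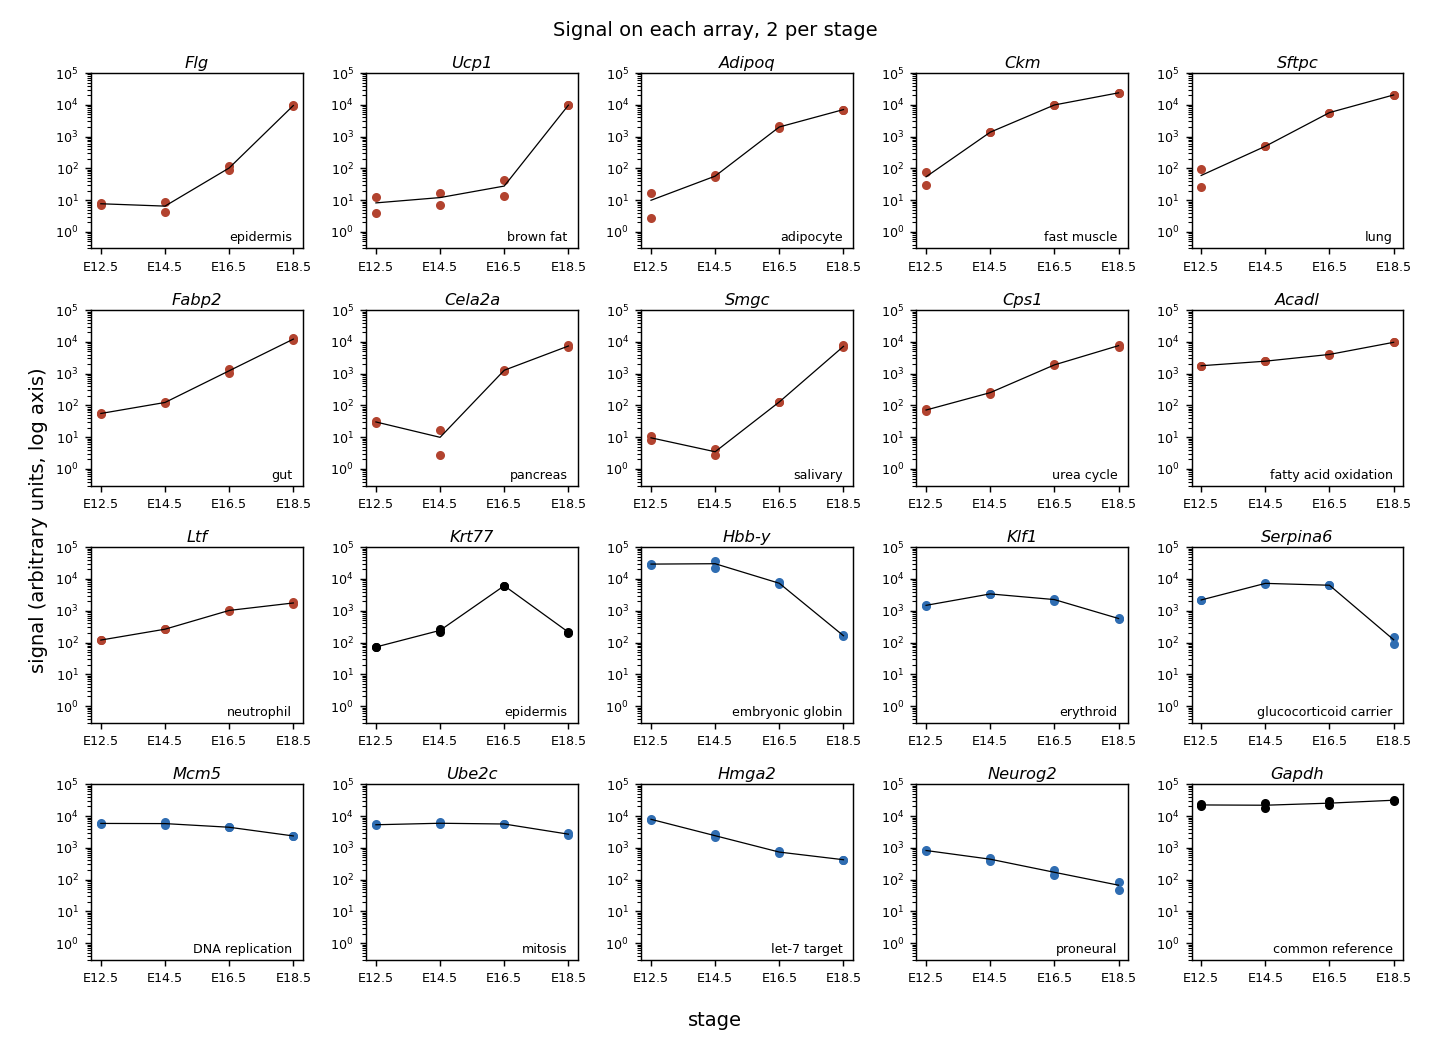
Signal (arbitrary units, log axis) of 20 genes on each of the 2 arrays per stage from E12.5 to E18.5, with lines through the means. Points are red for genes called higher at E18.5 than at E14.5, blue for genes called lower and black for genes not called. Ucp1 reads 9667 and 9821 at E18.5 and is at background before, Krt77 peaks at E16.5, and Serpina6 drops after E16.5.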

How the data were processed

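The deposited values are intensities, 1 linear signal for each probe set, which the authors made with MAS5, per the submitters' processing notes. Its version and settings are not given in the sources used here. The mean of each array without its lowest and highest 2% was 500.0, a common scaling. Probe sets with several gene symbols (932) or none (9211) were left out of the gene results, and each gene was read from its probe set of highest average log2 signal across all arrays. Of 18194 genes, 14045 above the array's median on at least 2 arrays were tested. The pseudocount of 25.9 is the 25th percentile of an array, taken as the median of the 20. The model was fitted to all 20 arrays and held 1 mean for each stage, which leaves 12 residual degrees of freedom (limma 3.58.1, R 4.3.3, with lmFit and a trended eBayes). P-values are two-sided and were adjusted by the Benjamini-Hochberg method for all tested genes together. The contrasts were E18.5 against E14.5, each 2-day step of that span, and the difference of the steps.

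Members, lists, motifs and rules were chosen with earlier results of these data known. Named were the 15 largest rises and falls (without uncharacterised loci and probe sets that may cross-hybridise), up to 6 called members of each list and 2 called the other way, a set of anchor genes whatever their result, the 5 largest of each sign in the difference of the steps, and members that were not called, as such. Samples sharing a replicate number did not deviate together (correlations across genes of -0.05 to 0.14), so the numbers were not used to pair, although the brightest genes read higher on the second array at E12.5, E14.5 and E16.5. Promoter windows are from RefSeq (GRCm38.p6), and 11294 of the genes tested matched one by symbol. The array is not tied to a genome build in the sources used here, so no gene coordinates are given. Alternatives were another normalization (quantile, 75th percentile), pseudocount, filter, choice of probe set, arrays in the fit, no minimum fold, a replicate block, and leaving out each array.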

Additional observations from a re-analysis of the deposited data

Results flagged for a closer look

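Genes whose change in the last 2 days differed from that in the first 2 days by the test of the difference itself are given here with that difference, last minus first, in log2 units. The 5 largest positive ones were Ucp1 of brown fat (7.11), Scgb1a1 of the airway (5.23), Bpifa2 of the salivary gland (5.20), Lce1b of the skin (4.94) and Pga5 of the stomach (4.83). Pga5 was at 158 and 199 at E16.5 and at 7436 and 8948 at E18.5, against 106 and 131 at E14.5. The 5 largest negative ones were Krtap13 (-11.42), Krt77 (-9.22), Hrnr (-8.13), Orm1 (-6.33) and Dynap (-5.97). All 5 were brightest at E16.5, Hrnr by little, at 11003 and 11343 at E16.5 and at 9973 and 10394 at E18.5. Dynap read 64.0 and 13.8 at E14.5, 451 and 477 at E16.5 and 23.4 and 57.1 at E18.5. The adjusted p of these 10 differences lay between 3.98e-09 and 0.00197. The steps share the E16.5 arrays with opposite sign, so a deviation of those arrays alone would enter both. Under a pseudocount 4 times smaller the differences of Bpifa2, Lce1b and Scgb1a1 were no longer called, and that of Lce1b also not without the first E16.5 array.

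Probe sets with no gene symbol or with several, which the gene results leave out, also differed between the stages. Of 3987 tested, 183 were higher at E18.5 (4.59%) and 86 lower (2.16%), beside 7.51% and 2.79% of the probe sets with a single symbol.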

How the results depend on the processing

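For E18.5 against E14.5, the count of genes called higher (1394) was 862 with a filter at the 75th percentile and 2446 with no minimum fold, and that called lower (405) was 235 with a pseudocount 4 times larger and 3041 with no minimum fold. Leaving out each array gave 1223 to 1287 higher and 387 to 414 lower. For E16.5 against E14.5, the count higher (506) was 332 with a pseudocount 4 times smaller, 847 with no minimum fold and 332 to 367 without 1 array, and that lower (25) was 43 after quantile normalization, 12 with a pseudocount 4 times larger, 594 with no minimum fold and 18 to 40 without 1 array (40 without the first E16.5 array). For E18.5 against E16.5, the count higher (494) was 316 with a pseudocount 4 times smaller, 1029 with no minimum fold and 333 to 387 without 1 array, and that lower (109) was 181 after quantile normalization, 1194 with no minimum fold and 87 to 114 without 1 array. For the difference of the steps, the count called positive (50) was 89 after quantile normalization, 16 and 142 with a pseudocount 4 times smaller and larger, 141 in a fit of E12.5 to E18.5, 142 with the stages compared alone and 19 to 32 without 1 array, and that called negative (110) was 194, 55, 197, 283, 303 and 38 to 82 in the same order. Both were lowest without the second E16.5 array. List genes called lower (69) were 152 with no minimum fold, and 65 to 68 without 1 array, and those called higher (297) 272 to 281. Unnamed probe sets called lower (86) were 137 after quantile normalization. A minimum fold or filter changes counts by construction. In the other cases the cause was not tested.

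Of 234 called genes named, 183 were called under every alternative that gave a value, and 51 were lost under 1 or more. Values that changed sign were those of genes not called: Afp (-0.053 to 0.71 without 1 array, lowest without the first E14.5 array), Dynap (-0.49 to 0.69 without 1 array, below 0 without the second E18.5 or the second E14.5 array), Mbp (0.94 with the mean of its probe sets and 1.82 with the probe set brightest at E14.5 and E18.5), Snap25 (-0.077 with the mean of its probe sets, and -0.044 to 0.35 without 1 array, lowest without the first E18.5 array) and Tnni1 (-0.014 after quantile normalization). With the replicate number as a block, 1412 genes were higher and 407 lower, and no call of a named gene changed. Signals near background, as for most large rises at E14.5, limit how well the size of a change is known.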

Other observations

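Several large falls belong to none of the lists. Il17b, a cytokine gene, was at 177 and 116 at E18.5, against 786 and 880.2 at E14.5 (-2.34 ± 0.36, adjusted p = 3.7e-05), Apol8, of the apolipoprotein L family, at 183 and 192 at E18.5, against 1083 and 873 at E14.5 (-2.23 ± 0.45, adjusted p = 0.000564), and Nxpe2 at 238 and 259 at E18.5, against 1273 and 1245 at E14.5 (-2.23 ± 0.31, adjusted p = 9.27e-06). Each had signals at E16.5 near those of E14.5, at 756 and 682, 958 and 710.1 and 1150.3 and 1073.

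Cubn and Amn, which together form the uptake receptor of the proximal tubule, gut and yolk sac, rose by 2.95 ± 0.66 and 2.47 ± 0.31. In the eye list Cryab, a small heat shock protein of lens and muscle, was the 1 rise among 10 tested genes, at 7242 and 6250.1 at E18.5, against 1999.9 and 2008 at E14.5 (1.73 ± 0.18, adjusted p = 3.66e-07). The share of the list that rose was 10%, beside 9.93% of all genes. Among 8 tested gonad and germ cell genes 2 rose, of which Sycp3, a protein of meiotic chromosomes, was at 74.8 and 77.2 at E18.5, against 19.8 and 1.75 at E14.5 (1.52 ± 0.39, adjusted p = 0.00444), a call lost without the second E14.5 array. Stra8, which starts meiosis, was at 62.3 and 70.5 at E18.5, against 82.6 and 75.1 at E14.5 and was not called (-0.18 ± 0.46, adjusted p = 0.794).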
